A study of Mus musculus with 6 samples.

Results

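The genes described here encode the proteasome and immunoproteasome, as measured in bone marrow-derived macrophages (BMDMs) of WT and PYK2 KO mice. Members were found by gene symbol, as the rows named Psma, Psmb, Psmc, Psmd, Psme or Psmg followed by a number, plus Psmf1 and Pomp, which gave 49 of the 55291 rows of the deposited count table. BMDMs are primary macrophages grown from marrow cells, here for 7 days in medium whose M-CSF came from L929 cells, and no further stimulus is named for these samples. All mice were C57BL/6, and the groups were 3 WT mice and 3 mice carrying the Pyk2 knock-out, which removes the tyrosine kinase PYK2 (gene Ptk2b) in the whole animal, so that marrow progenitors also lacked it. The age and sex of the mice are not given in the sources used here. Each mouse gave 1 library, made by a bulk form of MARS-seq that sequences the 3′ end of polyadenylated RNA, and the deletion was tested with edgeR across the whole table.

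The proteasome is the protease that degrades ubiquitin-tagged proteins in the cytosol and nucleus. Its barrel, the 20S core, is built from alpha subunits (Psma), which gate the entrance, and beta subunits (Psmb), some of which carry the proteolytic sites. The 19S cap unfolds substrates with ATPases (Psmc) and receives and deubiquitinates them with non-ATPase subunits (Psmd), whereas PA28 and PA200 (Psme) are alternative caps. In cells exposed to interferon, and constitutively in many immune cells, Psmb8, Psmb9 and Psmb10 take the places of Psmb5, Psmb6 and Psmb7. The resulting immunoproteasome, together with the PA28 subunits Psme1 and Psme2, is known for producing peptides that fit MHC class I.

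The 5 immunoproteasome genes lie at a few loci. By their symbols in GENCODE M21 (build GRCm38), Psmb9 (chromosome 17, 34181987 to 34187764, minus strand) and Psmb8 (chromosome 17, 34197721 to 34201454, plus strand) flank the peptide transporter gene Tap1 (34187553 to 34197225). Psme1 (chromosome 14, 55578123 to 55581529) and Psme2 (55587441 to 55591113) are neighbours on the chromosome that holds Ptk2b, 10.6 Mb from it. Psmb10 lies on chromosome 8 (105935735 to 105938444). All 49 genes were placed, on 16 chromosomes, and 6 of them lay on chromosome 14, of which Psme1 and Psme2 were the closest to the deleted gene.

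Promoter windows of 300 bases (RefSeq, GRCm38.p6, minus 250 to plus 50 around an annotated start) were held for 41 of the 49 genes, and 8 had no entry (Psma8, Psmb1, Psmb2, Psmb7, Psmc3, Psmd3, Psmd7 and Psmg2). A pair of motifs was searched on both strands, namely TGACNNNGC, the core of the antioxidant response element bound by NFE2L1 and NFE2L2, and GAAA, any 2 bases and GAAA again, the interferon-stimulated response element. The first was found in 6 of the 41 genes (14.6%), close to the 14.7% of all 20977 genes of the table with a window. The second was found in 5 of the 41 (12.2%), namely Psmb3, Psmd4, Psmd9, Psme1 and Psmg4, beside 3.91% of all genes with a window. Among the immunoproteasome genes, Psme1 held the second motif, and the windows of Psmb8, Psmb9, Psmb10 and Psme2 held neither of these letter strings. The windows of Psmb8, Psmb9 and Psme1 lay wholly inside the gene spans given above, around a start downstream of the outermost one. For these genes the bases upstream of the outermost start were therefore not searched. The windows of Psme1, of the most abundant catalytic subunit Psmb6 and of the PA200 gene Psme4 are shown, with the motif in capitals. They span chr14:55578244-55578543 (plus strand), chr11:70525107-70525406 (plus strand) and chr11:30771525-30771824 (plus strand).
Psme1: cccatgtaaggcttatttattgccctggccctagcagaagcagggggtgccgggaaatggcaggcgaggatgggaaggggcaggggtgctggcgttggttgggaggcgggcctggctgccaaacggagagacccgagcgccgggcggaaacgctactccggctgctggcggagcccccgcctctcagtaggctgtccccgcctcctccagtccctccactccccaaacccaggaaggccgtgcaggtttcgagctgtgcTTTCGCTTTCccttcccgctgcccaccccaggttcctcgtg
Psmb6: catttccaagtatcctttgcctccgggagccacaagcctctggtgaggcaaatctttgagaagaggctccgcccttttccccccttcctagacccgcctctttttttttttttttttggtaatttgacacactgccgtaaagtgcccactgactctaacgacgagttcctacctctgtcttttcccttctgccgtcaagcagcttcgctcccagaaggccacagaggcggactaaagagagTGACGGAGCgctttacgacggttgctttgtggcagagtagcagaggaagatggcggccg
Psme4: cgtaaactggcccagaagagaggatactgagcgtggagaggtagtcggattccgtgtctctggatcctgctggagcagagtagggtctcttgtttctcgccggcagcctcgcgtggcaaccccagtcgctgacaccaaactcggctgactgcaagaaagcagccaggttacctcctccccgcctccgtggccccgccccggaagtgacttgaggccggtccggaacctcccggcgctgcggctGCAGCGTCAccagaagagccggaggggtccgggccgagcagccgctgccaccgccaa
The Psme1 match reads TTTCGCTTTC, the reverse complement of the searched string, and lies just after the annotated start. A match of letters is a description of the window and was not tested for binding.

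The 6 libraries held between 2857097 and 3917207 counts, and 9815 genes had enough counts to be tested. Ptk2b fell to 11.2% of its WT level (log2 fold change -3.15, SE 0.10, adjusted p = 1.03e-11, edgeR quasi-likelihood test with Benjamini-Hochberg adjustment). In all, 25 genes passed an adjusted p of 0.05, or 0.255% of those tested. The macrophage markers Adgre1, Cd68, Csf1r, Itgam, Lyz2, Fcgr1, Mertk, Cd14 and Mrc1 were all detected, with a summed level of 29277 to 31439 CPM (counts scaled to library size with TMM factors). T cell markers (3 of 7 at 0 in every library) summed to at most 9.52 CPM, B cell markers (4 of 5 at 0) to 23.2 CPM, stromal markers (3 of 5 at 0) to 1.40 CPM and dendritic cell markers (5 of 6 at 0) to 0.69 CPM, and all NK cell and erythroid markers were at 0. The 8 neutrophil markers summed to 109 to 157 CPM in WT and 118 to 207 CPM in PYK2 KO libraries. At an unadjusted p under 0.05 stood 2 of the 5 that were tested, S100a9 and Mpo. Both had the higher mean in PYK2 KO, a direction in which 3.40% of all tested genes met this limit. The part of the neutrophil markers in the results was not tested.

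Of the 49 proteasome genes, 47 passed the filter on low counts. Those that did not were Psma8, the alpha subunit used in testis, with 1 to 8 counts a library, and Psmb11, the catalytic subunit of thymic epithelium, with 0 counts in every library. The 3 counts that such a 0 allows correspond to 0.77 to 1.05 CPM. The other members covered a wide range of levels, from a mean of 8.16 CPM for Psma4 to 909 CPM for Psmd8, with a median of 117 CPM. Because each transcript is counted at its 3′ end, these levels were not divided by transcript length.

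No proteasome gene passed the threshold in PYK2 KO against WT BMDMs (0 of 47 in the edgeR quasi-likelihood test, beside 0.255% of all genes tested). The smallest adjusted p-value of a member was 0.328, for Psmb7, and a p-value that misses the threshold does not show that the genotypes were alike. At an unadjusted p under 0.05 stood 5 members (10.6%), beside 6.03% of all genes tested. They were Psmb7, Psma2, Psmd10, Psme4 and Psmc5, and all 5 had the higher mean in PYK2 KO, a direction in which 3.40% of all tested genes met this limit, while 0 members met it with the lower mean, beside 2.63% of all tested genes. Without PYK2 KO library 4 the count was 3 members, beside 4.44% of all genes tested in that fit, and it was 8 both without PYK2 KO library 2 (6.89% of all genes) and without PYK2 KO library 3 (5.62%). DESeq2 and limma voom also called 0 members, beside 0.224% and 0.204% of all genes. Each had 4 members at an unadjusted p under 0.05, beside 2.76% of all genes in DESeq2 and 6.00% in limma voom. Without the filter on low counts 3 of 48 members passed (Psma2, Psmd10 and Psma3), beside 0.852% of the 18659 genes then tested, and 8 stood at an unadjusted p under 0.05, beside 5.26%.

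**Figure D1:**
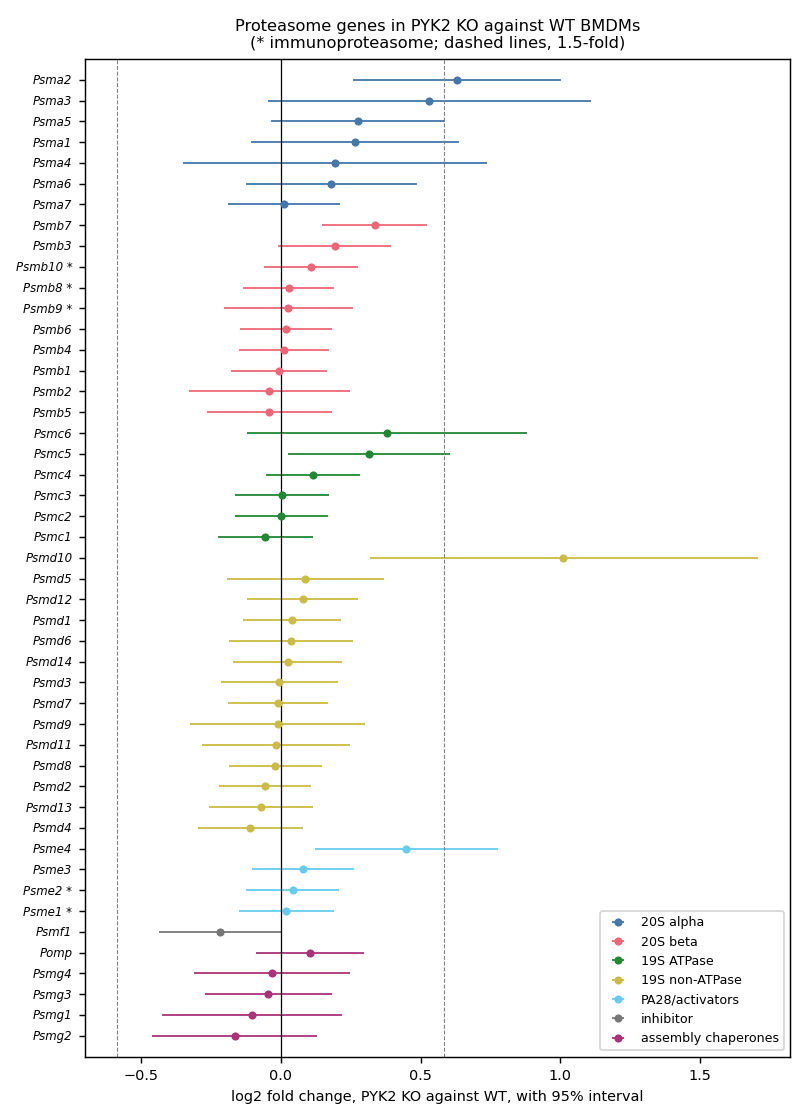
Log2 fold change of PYK2 KO against WT BMDMs for the 47 tested proteasome genes, with 95% intervals from the edgeR fit, in colours by group. The 5 intervals that exclude 0 (Psma2, Psmb7, Psmc5, Psmd10 and Psme4) all lie above it, and 38 of the 47 intervals stay inside the dashed lines at 1.5-fold.

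The data bounded most of the differences closely. In 38 of the 47 tested members (80.9%) the 95% interval of the log2 fold change lay inside 1.5-fold in both directions, beside 69.0% of all tested genes. The median log2 fold change over the members was 0.02, beside 0.0019 over all tested genes, with 30 members above and 17 below 0, where 50.5% of all tested genes lay above 0. The 3 WT and 3 PYK2 KO libraries did not overlap in 4 members (8.51%), namely Psmb7, Psmb10, Psmc4 and Psme4, beside 10.2% of all tested genes.

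Summed over all 49 genes, the proteasome transcripts made up 0.844%, 0.836% and 0.839% of the counts of WT libraries 1, 5 and 6 and 0.871%, 0.855% and 0.866% of those of PYK2 KO libraries 2, 3 and 4. The exact 95% binomial interval of the first was 0.835% to 0.854%, which covers counting error only. In CPM the sum was 8461 ± 64.9 in WT and 8659 ± 186 in PYK2 KO (SD, n = 3 mice each), or 0.03 higher on the log2 scale. The PYK2 KO libraries therefore lay slightly above the WT libraries, by a margin of the order of the spread among the PYK2 KO mice, and no test was made on this sum of chosen genes.

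**Figure D2:**
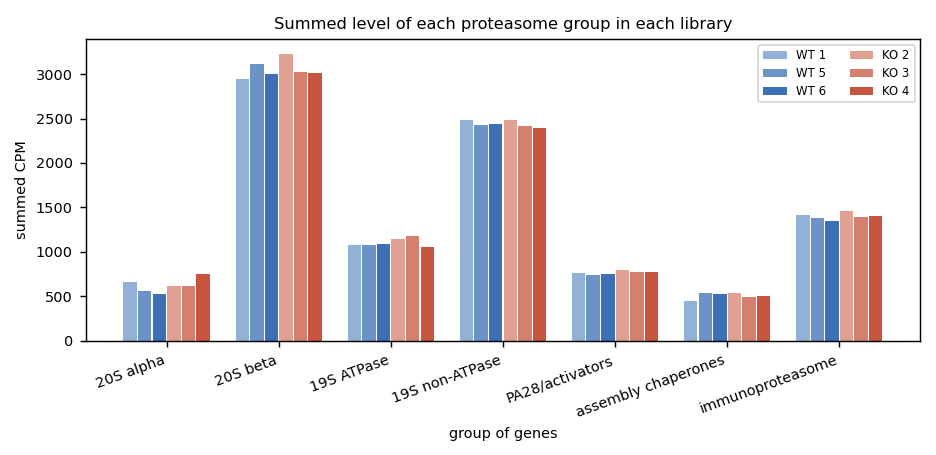
Summed CPM of each proteasome group in each of the 6 libraries, with WT in blue and PYK2 KO in red; the immunoproteasome genes are also part of the beta and PA28 sums. The 20S beta sums lie between 2950 and 3229 CPM, and the 20S alpha sums, in proportion the most variable of the multi-gene groups, between 530.0 and 744.5 CPM.

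The immunoproteasome was measured at high depth. Psmb8, which supplies the chymotrypsin-like site of the immunoproteasome, had 505, 521 and 488 CPM in WT libraries 1, 5 and 6 and 533, 502 and 509 CPM in PYK2 KO libraries 2, 3 and 4. The genotypes overlapped, and the log2 fold change was 0.03 with a 95% interval of -0.14 to 0.19 (adjusted p = 0.993, edgeR). Psmb9, the caspase-like replacement that lacks that activity itself, had 102, 79.8 and 78.5 CPM in WT and 93.7, 86.6 and 86.4 CPM in PYK2 KO libraries. Its highest value was that of WT library 1, and the log2 fold change of 0.03 (interval -0.20 to 0.26) became -0.04 without WT library 6 and 0.17 without WT library 1. Psmb10, which takes the trypsin-like position, had 177, 178 and 164 CPM in WT and 194, 183 and 183 CPM in PYK2 KO libraries. Here the PYK2 KO values all lay above the WT values, but the difference of 0.11 (interval -0.06 to 0.28, adjusted p = 0.933, edgeR) did not pass.

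The PA28 subunits varied little between libraries. Psme2 had 307, 308 and 309 CPM in WT and 325, 306 and 322 CPM in PYK2 KO libraries, and Psme1 had 320.2, 298 and 305 CPM in WT and 317, 319 and 300.4 CPM in PYK2 KO libraries. Their log2 fold changes were 0.04 (interval -0.12 to 0.21) and 0.02 (interval -0.15 to 0.19). The sum over the 5 immunoproteasome genes was 1412, 1384 and 1344 CPM in WT and 1463, 1396 and 1401 CPM in PYK2 KO libraries, so that PYK2 KO library 2 was the highest and WT library 6 the lowest. All 5 genes had 95% intervals inside 1.5-fold. Because the RNA came from whole cultures, fewer cells of a type and less RNA per cell cannot be told apart.

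Of the constitutive catalytic subunits, Psmb7 had the smallest p-value of all members. This gene of the trypsin-like site had 75.8, 76.7 and 75.01 CPM in WT and 92.1, 93.9 and 101 CPM in PYK2 KO libraries. The WT values lay close together and below every PYK2 KO value. Its log2 fold change was 0.34 (SE 0.09, interval 0.15 to 0.52), but it did not pass over all genes (adjusted p = 0.328, edgeR), and the estimate stayed between 0.29 and 0.36 with 1 library left out at a time. Psmb6, the caspase-like subunit and the most abundant of the beta genes, had 744, 808 and 785 CPM in WT and 833, 766 and 769.6 CPM in PYK2 KO libraries (log2 fold change 0.02, interval -0.15 to 0.18). Psmb5, of the chymotrypsin-like site, had 155, 166 and 151 CPM in WT and 182, 131 and 147 CPM in PYK2 KO libraries. The PYK2 KO values of Psmb5 enclosed all of the WT values, and the log2 fold change was -0.04 (interval -0.26 to 0.18).

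**Figure D3:**
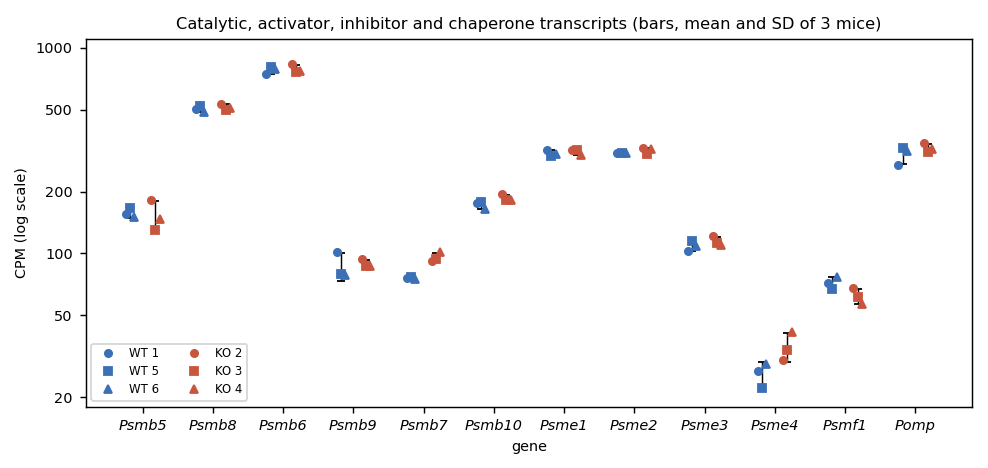
CPM (log axis) of the constitutive and immunoproteasome catalytic genes, the activators, the inhibitor Psmf1 and the chaperone Pomp in each library, with bars for the mean and SD of 3 mice. Psmb7, Psmb10 and Psme4 are the genes of this set whose PYK2 KO points all lie above the WT points.

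The transcripts of each replacement and of the subunit it displaces were compared as a ratio of counts within a library, which needs no scaling. Such a ratio describes RNA and does not measure how much of each form of the core was assembled. Psmb8 to Psmb5 was 3.26, 3.13 and 3.23 in WT and 2.94, 3.84 and 3.47 in PYK2 KO libraries. Psmb9 to Psmb6 was 0.137, 0.0987 and 0.09996 in WT and 0.112, 0.113 and 0.112 in PYK2 KO libraries. In both pairs the genotypes overlapped (two-sided exact permutation test, p = 0.6 and p = 1, with adjusted values of 0.9 and 1 over the 3 ratios). Psmb10 to Psmb7 was 2.33, 2.32 and 2.18 in WT and 2.10, 1.95 and 1.80 in PYK2 KO libraries, so that each PYK2 KO library lay below each WT library. The mean log2 ratio was 1.19 ± 0.05 in WT and 0.96 ± 0.11 in PYK2 KO (SD, n = 3 mice each), a difference of -0.22 (two-sided exact permutation p = 0.1, and 0.3 adjusted over the 3 ratios). With 3 mice in each group no smaller p can be reached. Set against the sum of Psmb5, Psmb6 and Psmb7 in place of Psmb7, the difference for Psmb10 was 0.07.

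**Figure D4:**
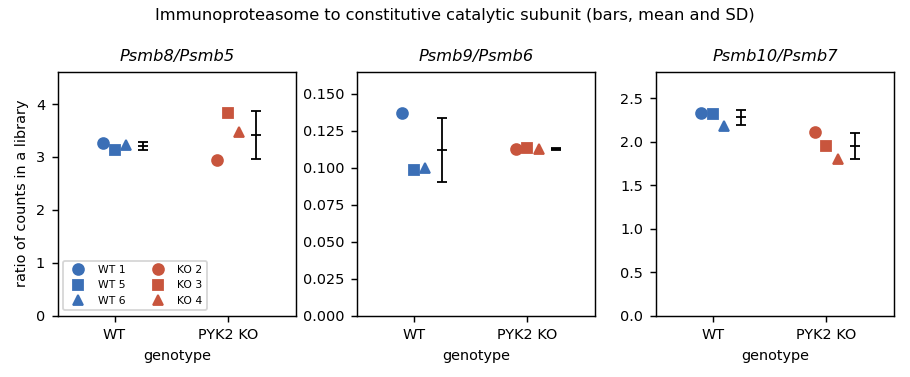
Ratio of the counts of each immunoproteasome catalytic subunit to those of its constitutive counterpart, per library, with the mean and SD of each genotype beside the points. The axes start at 0. The genotypes overlap for Psmb8 to Psmb5 and for Psmb9 to Psmb6, and for Psmb10 to Psmb7 the PYK2 KO points (1.80 to 2.10) lie below the WT points (2.18 to 2.33).

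The remaining tested beta subunits, which carry no proteolytic site, had small differences. Psmb1, Psmb2, Psmb3 and Psmb4 had log2 fold changes between -0.04 and 0.19, and the largest was that of Psmb3, with 117, 125 and 121 CPM in WT and 149, 119 and 147 CPM in PYK2 KO libraries. Psmb3 was high in 2 of the 3 PYK2 KO libraries and did not pass (adjusted p = 0.853, edgeR). All 10 tested beta genes had intervals inside 1.5-fold.

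The alpha subunits were the group that varied most between libraries. All 7 tested genes had log2 fold changes above 0, with a median of 0.26, and 2 of the 7 intervals lay inside 1.5-fold. Psma2 had 69.7, 43.9 and 43.5 CPM in WT and 63.8, 82.4 and 99.2 CPM in PYK2 KO libraries, a log2 fold change of 0.63 (SE 0.18, interval 0.26 to 1.00, adjusted p = 0.385, edgeR). WT library 1 stood above PYK2 KO library 2, so the genotypes overlapped. Without WT library 1 the estimate was 0.91 and passed (adjusted p = 0.0217, edgeR, beside 0.342% of the genes tested in that fit), and without PYK2 KO library 4 it was 0.46. Psma5 had 64.4, 49.8 and 55.7 CPM in WT and 59.0, 59.2 and 87.0 CPM in PYK2 KO libraries, and its log2 fold change of 0.28 became 0.06 without PYK2 KO library 4. PYK2 KO library 4 was the highest library for 4 of the 7 alpha genes and WT library 6 the lowest for 5. Psma7, the most abundant alpha gene, had 414, 342 and 339 CPM in WT and 363, 348 and 393 CPM in PYK2 KO libraries, with a log2 fold change of 0.01 (interval -0.19 to 0.21). Psma4, the least abundant, had 9.45, 7.84 and 5.26 CPM in WT and 8.02, 10.05 and 8.35 CPM in PYK2 KO libraries, with a log2 fold change of 0.19 (interval -0.35 to 0.74). In both genes the genotypes overlapped.

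Psma3 carried a further uncertainty. Its counts were 145, 113 and 44 in WT libraries 1, 5 and 6 and 98, 88 and 206 in PYK2 KO libraries 2, 3 and 4, and the log2 fold change of 0.53 (interval -0.05 to 1.11) became 0.11 without PYK2 KO library 4. In the transcript set of the same annotation, Gm13835 contains 23.7% of the 50-base words found in the last 500 bases of the Psma3 transcripts. Gm13835 had 37, 50 and 125 counts in WT and 80, 81 and 17 counts in PYK2 KO libraries, so it was highest where Psma3 was lowest (WT library 6) and lowest where Psma3 was highest (PYK2 KO library 4). The summed counts of both genes were 182, 163 and 169 in WT and 178, 169 and 223 in PYK2 KO libraries. The variance among mice of a genotype was 18.8 times that of counting alone for Psma3 and 2.48 times for the sum, and on the sum the log2 fold change was 0.28 (interval 0.02 to 0.54, adjusted p = 0.777, edgeR).

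The same sum was made for 3 other members, Psma5, Psme2 and Psmb5, and these sums were chosen after their values were seen. For Psma5, whose partner Gm12989 had 70 counts in WT library 5 and 5 to 10 in the others, the log2 fold change moved from 0.28 to 0.12. Psme2 shares 32.1% of its 3′ words with Psme2b, which had 57 to 108 counts, and Psmb5 shares 54.5% with Gm3375, which had 3 to 9. Their log2 fold changes were 0.05 and -0.05 on the sums, and 0 members passed. How the authors assigned reads that match several genes is not given in the sources used here.

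Among the ATPases of the 19S cap, which pull substrates into the core, 5 of 6 had log2 fold changes above 0 and 0 passed. Psmc5 had 140.5, 149 and 156 CPM in WT and 176, 238 and 141 CPM in PYK2 KO libraries. A single library, PYK2 KO 3, stood far above the rest, and without it the log2 fold change of 0.31 (interval 0.02 to 0.61, adjusted p = 0.783, edgeR) became 0.09. The variance of Psmc5 among mice was 21.1 times that of counting alone, the largest of the members. Psmc3, the most abundant ATPase gene, had 342, 353 and 340.0 CPM in WT and 362, 347 and 329.9 CPM in PYK2 KO libraries (log2 fold change 0.0048). Psmc4 did not overlap between genotypes, with 148 to 162 CPM in WT and 164 to 177 CPM in PYK2 KO libraries, a log2 fold change of 0.12 (interval -0.05 to 0.28). Psmc6 was the least abundant ATPase gene, with 6.90, 9.24 and 7.01 CPM in WT and 10.9, 11.1 and 8.35 CPM in PYK2 KO libraries, from 20 to 34 counts a library (interval -0.12 to 0.88).

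The non-ATPase subunits of the cap form the largest group. Of 14 tested genes, 13 had intervals inside 1.5-fold, and the median log2 fold change was -0.0065. They include the scaffold subunits Psmd1 (0.04) and Psmd2 (-0.06), the ubiquitin receptor Psmd4 (-0.11), the deubiquitinase Psmd14 (0.02) and Psmd8 (-0.02), with the log2 fold change in parentheses. Psmd8 had the highest level of all members, with 927, 955 and 864 CPM in WT and 953, 891 and 865 CPM in PYK2 KO libraries. The exception was Psmd10, which encodes gankyrin, a chaperone that binds the ATPase ring during assembly. It had 48, 24 and 20 counts in WT and 31, 44 and 93 counts in PYK2 KO libraries. WT library 1 lay above PYK2 KO libraries 2 and 3 in counts and between them in CPM, and the log2 fold change of 1.01 (SE 0.33, interval 0.32 to 1.71, adjusted p = 0.551, edgeR) was 0.50 without PYK2 KO library 4. The other chaperones of the cap counted with this group, Psmd5 and Psmd9, had log2 fold changes of 0.09 and -0.01.

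**Figure D5:**
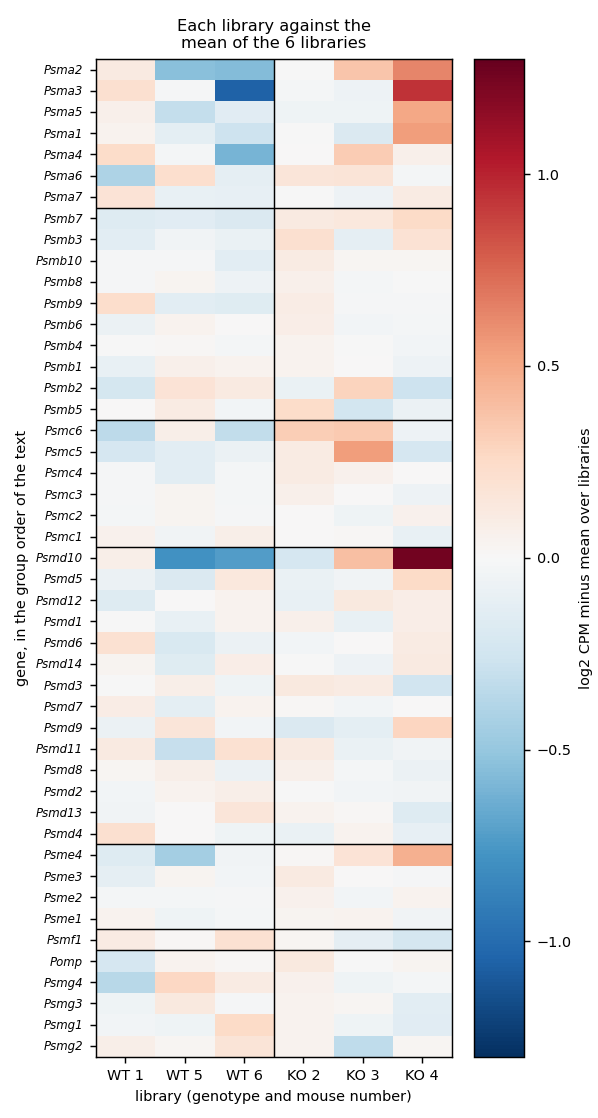
Log2 CPM of each tested member in each library minus its mean over the 6 libraries, with genes in the order of the plot of fold changes and lines between groups and genotypes. Psma2, Psma3 and Psmd10 are the 3 genes that differ by over 2-fold between libraries, with PYK2 KO library 4 the highest in each.

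For Psma2, the libraries from high to low were PYK2 KO 4, PYK2 KO 3, WT 1, PYK2 KO 2, WT 5 and WT 6, and for Psmd10 the order was the same except that WT 5 was the lowest. B2m, the light chain of MHC class I, took the order of Psma2 over a wider range, with 1521, 1046, 971, 523, 263 and 213 CPM. Its log2 fold change was 1.09 (adjusted p = 0.702, edgeR). S100a9, a neutrophil marker, took the order of Psmd10, with 103 CPM in PYK2 KO 4, 93.2 in PYK2 KO 3, 70.7 in WT 1, 50.7 in PYK2 KO 2, 34.0 in WT 6 and 29.95 in WT 5 (log2 fold change 0.85, adjusted p = 0.537, edgeR). Mpo, a granule enzyme of neutrophil precursors, had 4 to 12 counts in WT and 11 to 21 in PYK2 KO libraries, and its CPM values did not overlap. The other 3 tested neutrophil markers overlapped between genotypes, with log2 fold changes of 0.10 (S100a8), 0.19 (Ngp) and -0.26 (Camp). S100a9 and Mpo were singled out after their values were seen. The part of this shared library order, and of S100a9 and Mpo, in the results of Psma2 and Psmd10 was not tested. Of all 47 tested members, 36 differed by less than 1.5-fold between their highest and lowest library, and 3 by over 2-fold.

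Of the alternative activators, Psme4 (PA200, a nuclear cap) had 26.8, 22.1 and 29.1 CPM in WT and 30.5, 33.9 and 41.4 CPM in PYK2 KO libraries. Every PYK2 KO library was above every WT library, and the log2 fold change was 0.45 (SE 0.15, interval 0.12 to 0.78, adjusted p = 0.591, edgeR). Psme3, which encodes the nuclear PA28 gamma, had 103, 114 and 109 CPM in WT and 121, 112 and 111 CPM in PYK2 KO libraries (log2 fold change 0.08, interval -0.10 to 0.26). Psmf1, named as a proteasome inhibitor (PI31), had 72.0, 67.5 and 76.8 CPM in WT and 67.7, 61.3 and 56.9 CPM in PYK2 KO libraries. It had the most negative log2 fold change of the members, -0.22 (interval -0.44 to 0.0033, adjusted p = 0.838, edgeR), and the genotypes overlapped by less than 1 CPM.

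The chaperones that assemble the core were measured as Pomp and Psmg1 to Psmg4. Pomp, which escorts the beta subunits and is itself degraded by the finished core, had 269.7, 326 and 317 CPM in WT and 344, 312 and 323 CPM in PYK2 KO libraries. WT library 1 was low, and the log2 fold change of 0.10 (interval -0.09 to 0.30) became 0.02 without it. The Psmg genes had log2 fold changes from -0.16 (Psmg2) to -0.03 (Psmg4). Psmg1, the least abundant of the chaperones, had 22.2, 21.8 and 27.0 CPM in WT and 23.4, 21.8 and 20.6 CPM in PYK2 KO libraries, which overlapped (interval -0.42 to 0.22). All 5 intervals lay inside 1.5-fold.

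Around the proteasome itself, a list of 37 genes for its regulation, substrate delivery and downstream peptidases gave 33 rows, of which 31 were tested. It was read beside the members with the same fit, and 0 passed in either direction, beside 0.112% of all tested genes that were called higher and 0.143% called lower. Nfe2l1, the transcription factor that raises proteasome genes when the protease is impaired, had 241 ± 9.34 CPM in the WT group and 242 ± 22.9 CPM in the PYK2 KO group (SD, n = 3 mice each). Adrm1, a ubiquitin receptor of the cap whose symbol lies outside the naming rule, had a log2 fold change of -0.0031. At an unadjusted p under 0.05 stood 2 of the 31 with the higher mean in PYK2 KO and 2 with the lower. Of all tested genes, 3.40% met this limit with the higher and 2.63% with the lower mean. Those of the list included Rps27a (0.31), Tpp2 (0.38) and Akirin1 (-0.30), with the log2 fold change in parentheses. The medians of the list and of all genes were -0.02 and 0.0019. The summed level of the list was 7148 to 7253 CPM in WT and 6848 to 7135 CPM in PYK2 KO libraries, which did not overlap, with PYK2 KO the lower, and no test was made on this sum. Rps27a encodes ubiquitin fused to a ribosomal protein, Tpp2 a peptidase that trims proteasome products, and Akirin1 is a nuclear paralog of the factor that brings proteasomes into the nucleus.

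Interferon-responsive genes, which accompany the immunoproteasome, were read in the same way. Of 30 listed, 25 were tested and 0 passed, beside 0.255% of all tested genes. Their sum was 1625 to 1750 CPM in WT and 1607 to 1766 CPM in PYK2 KO libraries. Irf1 and Nlrc5, regulators of immunoproteasome and MHC class I genes, had log2 fold changes of -0.12 and 0.11. The smallest unadjusted p-values were those of Gbp2 (log2 fold change 0.85, 12 to 20 counts in WT and 25 to 29 in PYK2 KO libraries) and Stat2 (0.23). These 2 stood at an unadjusted p under 0.05 with the higher mean in PYK2 KO, beside 3.40% of all tested genes. With the lower mean 0 did, beside 2.63%. Of the 10 genes of MHC class I peptide loading, 0 passed, beside 0.255% of all tested genes. Log2 fold changes were above 0 in 9 of them and below in 1, where 50.5% of all tested genes lay above 0. Only B2m stood at an unadjusted p under 0.05. Tap1 and Tap2, beside Psmb8 and Psmb9 on chromosome 17, had log2 fold changes of 0.07 and 0.01.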

How the data were processed

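RNA-seq libraries of BMDMs from 3 WT mice and 3 PYK2 KO mice were grouped by their titles. The values the authors deposited are raw whole-number counts for each gene, made by the UTAP pipeline from MARS-seq libraries and not normalized. Names given in the submitters' processing notes are cutadapt, STAR and mm10, without versions. Whether molecular identifiers were collapsed is not given in the sources used here. The binomial interval of the summed share and the limits set by a count of 0 cover counting error only. Columns belonging to other samples numbered 0. No pair of libraries was a duplicate (chi-square per degree of freedom at least 2.15 within a genotype).

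The genotype effect was fitted with edgeR 4.0.16 under R 4.3.3, after filterByExpr and TMM scaling, and tested by quasi-likelihood at a Benjamini-Hochberg adjusted p under 0.05 over all 9815 genes. SEs and 95% intervals of fold changes came from the F statistic and its degrees of freedom and include the spread among mice, and the fit was checked on simulated counts. Alternatives were DESeq2 1.42.0, limma 3.58.1 (voom), other scalings and filters, and leaving out each library. The members and lists were chosen with earlier results of these data known. Values (CPM or counts) per library are given for the catalytic subunits, activators, Psmf1, Pomp, the 10 members with the smallest p and the extremes of level in each group. A planned comparison of protein sequences was not made, and a gene of the lists is not reported here. Summing a member with its near-identical copy was chosen after seeing the data.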

Additional observations from a re-analysis of the deposited data

How the results depend on the processing

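No paired analysis was possible because the genotypes have no replicate number in common (WT has 1, 5 and 6, PYK2 KO has 2, 3 and 4).

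The number of proteasome genes past the threshold was 0 under each other scaling, with at least 10 counts in every sample, in DESeq2 and in limma voom, where 20 to 25 of all genes passed, and on the summed copies. Without a filter it was 3, where 159 of all genes passed, and 8 members stood at an unadjusted p under 0.05, where 5.26% of all genes did. With 1 library left out, 0 to 1 members passed (Psma2 without WT library 1), where 14 (without PYK2 KO library 4) to 34 of all genes did. Members at an unadjusted p under 0.05 then numbered 3 (without PYK2 KO library 4, where 4.44% of all genes did) to 8 (without PYK2 KO library 2 or 3, where 6.89% and 5.62% did). The number of all genes that passed was 15 when WT library 5 or the PYK2 KO library numbered 2 was left out. The median log2 fold change of the members ran from 0.015 to 0.048 in those fits. The difference in the Psmb10 to Psmb7 ratio was 0.075 with the summed denominator, and from -0.28 to -0.17 with 1 library left out. Other scalings shifted the median of all genes by at most 0.0095 on the log2 scale.

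Of 312 values for 24 named members under these other settings, 292 kept their direction and side of the threshold, 4 passed and 16 changed sign. The 4 were Psma2 (0.63), Psma3 (0.53) and Psmd10 (1.01) without a filter and Psma2 without WT library 1 (0.91). One change of sign came without a filter, for Psmc3 (-0.0019). The others came with 1 library left out, where values ran from -0.039 to 0.11 for Psma7, -0.18 to 0.058 for Psmb5, -0.022 to 0.046 for Psmb6, -0.035 to 0.17 for Psmb9, -0.029 to 0.038 for Psmc3, -0.062 to 0.012 for Psmd8 and -0.0028 to 0.0502 for Psme1. The causes were not tested. The members with the lowest means, Psma4 and Psmc6, had 15 to 37 counts a library, and their variance among mice was 1.14 and 0.77 times that of counting alone, beside 9.54 times for Psmd10.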
